A study of Mus musculus with 5 samples.

Results

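Granule secretion is the route by which cytotoxic lymphocytes deliver killing proteins, and 10 genes of it were examined in CD4 single-positive (CD4SP) thymocytes with and without a PLZF transgene. The 10 are Sytl3, Unc13d, Stx11 and Lyst of the secretory machinery, Srgn of the granule matrix, and the effectors Prf1, Gzma, Gzmb, Gzmk and Gzmm. A gene counted as measured when a row of the array table carried its symbol alone, which held for 9 of the 10 and for 12267 genes in all. The row for Gzmm also carried Cdc34, its neighbour on chromosome 10, so Gzmm was not analysed here. The genes were chosen by name with their intensities in the transgenic and wild type arrays already known, and their values in that comparison are therefore given as a description, with no p value. Which of them passed a threshold is stated as a description too, and nothing is read from it.

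The arrays were made from CD4+ CD8- lymphocytes sorted by flow cytometry from thymi of C57BL/6J mice aged 4 to 6 weeks. There were 3 arrays of PLZF transgenic cells and 2 arrays of wild type cells, each made from pooled mice and called a biological replicate in the labels. The pools are the replicates, and the spread between single mice cannot be seen. The promoter that drives the transgene is not given in the sources used here, and the transcript of PLZF itself, Zbtb16, was not analysed here, so the labels could not be checked against it. PLZF is the zinc finger factor under which NKT cells and other innate-like T cells acquire their effector programme.

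Cytolytic granules are lysosome-related organelles. Perforin, encoded by Prf1, forms pores through which granzymes, a family of serine proteases, enter a target cell, and serglycin (Srgn) is the proteoglycan that packs them inside the granule. Lyst governs the size of lysosome-related organelles, Sytl3 is an effector of Rab27 that links vesicles to transport and docking, Unc13d (Munc13-4) primes docked granules, and Stx11 is a syntaxin needed for their fusion. In humans, loss of PRF1, UNC13D or STX11 causes familial haemophagocytic lymphohistiocytosis. Conventional CD4SP thymocytes are naive cells that do not kill.

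RefSeq promoter entries, 250 bases before to 50 after a transcript start in GRCm38.p6, were at hand for 9 of the 10 listed genes. Those of the 4 genes whose transgenic and wild type arrays did not overlap are shown so that the sequences can be read beside the values. They lie at chr17:6658809-6659108 on the plus strand for Sytl3, chr10:62527396-62527695 on the minus strand for Srgn, chr10:61297586-61297885 on the plus strand for Prf1 and chr13:113180916-113181215 on the minus strand for Gzmk. Capitals mark the RUNX core TGTGGT, whose reverse complement reads ACCACA, and the T-box core TCACAC, whose reverse complement reads GTGTGA, since RUNX3 and T-box factors act on cytotoxic genes.
Sytl3: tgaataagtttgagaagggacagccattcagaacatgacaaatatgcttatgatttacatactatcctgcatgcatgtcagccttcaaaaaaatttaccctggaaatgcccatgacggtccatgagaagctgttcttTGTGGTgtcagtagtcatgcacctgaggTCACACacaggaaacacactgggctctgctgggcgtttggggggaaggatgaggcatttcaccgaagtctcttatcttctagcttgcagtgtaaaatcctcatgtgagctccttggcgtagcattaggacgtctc
Srgn: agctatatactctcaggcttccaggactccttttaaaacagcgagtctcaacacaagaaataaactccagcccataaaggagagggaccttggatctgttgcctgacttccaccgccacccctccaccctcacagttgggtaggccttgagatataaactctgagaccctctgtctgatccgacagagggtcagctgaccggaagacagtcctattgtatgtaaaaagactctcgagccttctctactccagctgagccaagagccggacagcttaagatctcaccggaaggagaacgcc
Prf1: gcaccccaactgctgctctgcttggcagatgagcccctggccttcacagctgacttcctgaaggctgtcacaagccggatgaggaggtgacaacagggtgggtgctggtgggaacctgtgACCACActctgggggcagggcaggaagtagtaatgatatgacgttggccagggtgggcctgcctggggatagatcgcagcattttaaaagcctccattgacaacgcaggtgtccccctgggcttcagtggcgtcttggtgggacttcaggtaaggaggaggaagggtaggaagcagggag
Gzmk: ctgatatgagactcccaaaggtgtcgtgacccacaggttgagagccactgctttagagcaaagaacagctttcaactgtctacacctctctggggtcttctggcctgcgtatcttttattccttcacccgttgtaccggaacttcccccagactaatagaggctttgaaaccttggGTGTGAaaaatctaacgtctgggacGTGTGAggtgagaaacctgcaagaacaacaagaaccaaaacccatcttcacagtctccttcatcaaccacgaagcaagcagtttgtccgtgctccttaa
The Sytl3 window holds 1 match to each core, the Prf1 window 1 RUNX match, the Gzmk window 2 T-box matches and this Srgn window none. A second Srgn entry, at a start further downstream, holds 1 RUNX match. Over the 11 entries of the listed genes, 6 hold a RUNX core and 4 a T-box core. Of all 32851 promoter entries of the same length, 16.8% hold a RUNX core, 14.5% a T-box core and 2.92% both. A match of 6 letters is a description of the sequence and not a binding site.

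In PLZF transgenic CD4SP cells, transcript for Sytl3 was 3.27-fold and for Srgn 1.60-fold that of wild type cells. The perforin gene Prf1 lay 2.02-fold lower and Gzmk 1.29-fold lower. Unc13d, Stx11, Lyst, Gzma and Gzmb had log2 changes between -0.09 and 0.12. The machinery, the matrix and the effectors thus did not share a direction. The median log2 change of the 9 genes was 0.05, and that of all genes tested was 0.00 when rounded.

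Sytl3 had intensities of 522.1, 535.8 and 666.0 on the PLZF transgenic arrays, against 183.6 and 165.2 on the wild type arrays. All 3 transgenic arrays were far above both wild type arrays, and transgenic replicate 3 stood highest. The log2 change, transgenic minus wild type on the log2(intensity + 1) scale, was 1.71 ± 0.14 (SE of the fit, 3 against 2 arrays). Only 9 of the 12267 genes had a larger rise in the mean, which places Sytl3 at rank 10.

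The other parts of the secretory machinery lay close together in the 2 genotypes. Unc13d had 797.8, 797.8 and 787.7 in transgenic arrays, against 797.8 and 840.0 in wild type arrays. The same value, 797.8, thus came from 3 of the 5 arrays, 2 transgenic and 1 wild type. Its log2 change was -0.04, with a 95% interval of the fit from -0.12 to 0.04. Stx11 had 117.5, 123.8 and 121.7 in transgenic arrays, against 117.5 and 115.7 in wild type arrays, a log2 change of 0.05 with an interval from -0.03 to 0.13. Lyst had 609.3, 633.1 and 625.0 in transgenic arrays, against 633.1 and 693.7 in wild type arrays, a log2 change of -0.09 with an interval from -0.24 to 0.05. In each of these 3 genes the groups overlapped or touched, and each interval leaves out changes as large as that of Sytl3.

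Srgn had intensities of 350.3, 352.2 and 355.0 in transgenic arrays, against 222.4 and 216.5 in wild type arrays. The arrays of each genotype lay close to each other and the genotypes were well apart. The log2 change was 0.68 ± 0.02 (SE), the smallest standard error among the 9 genes.

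**Figure D1:**
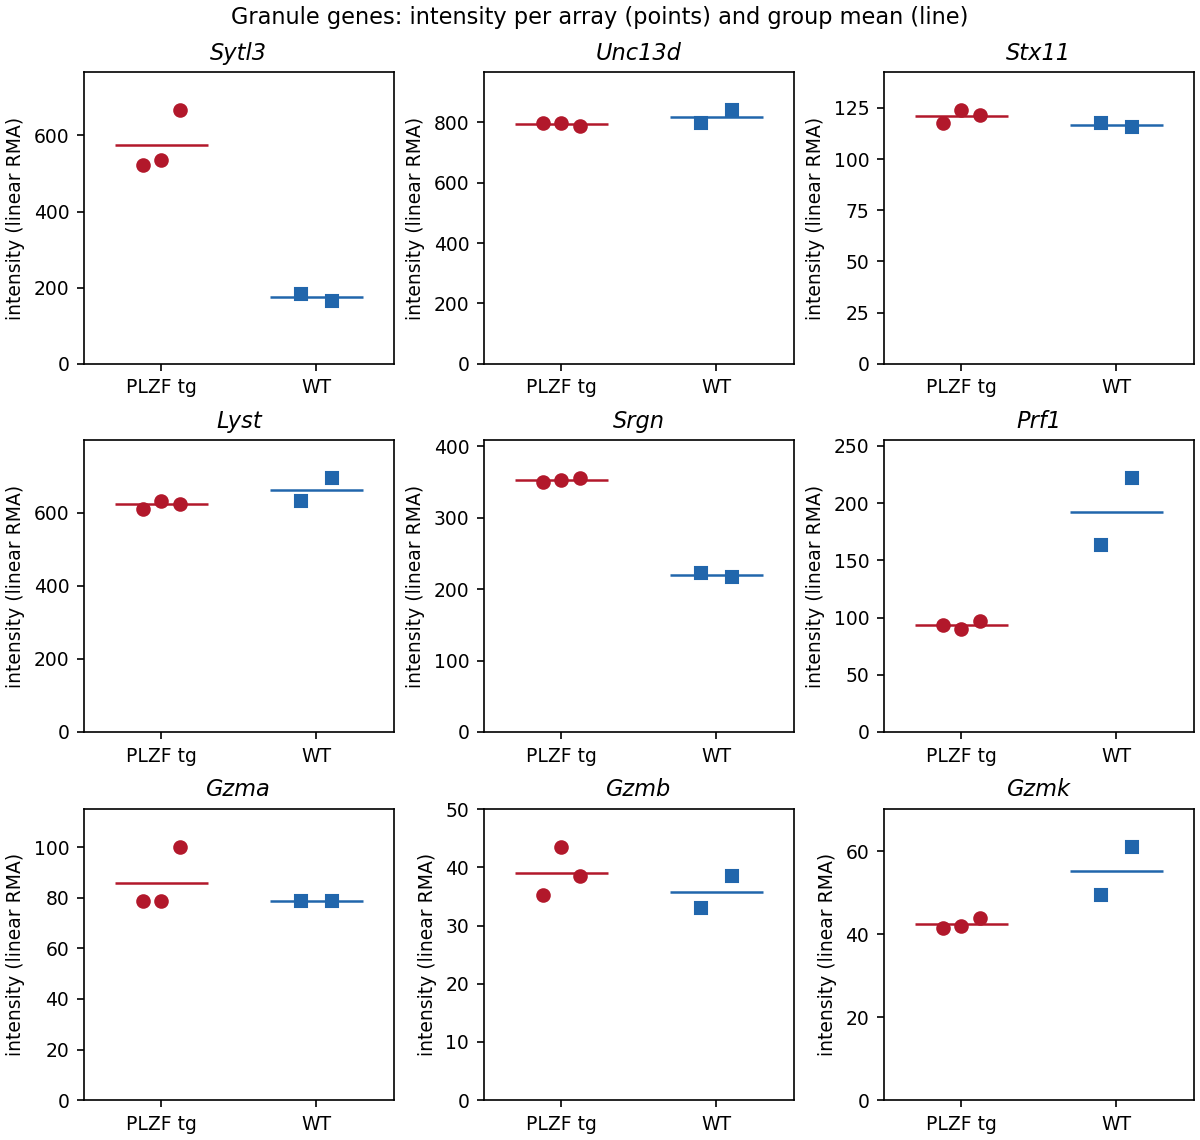
Intensity on a linear scale (y axis, from 0) of the 9 measured granule genes in each PLZF transgenic array (circles, left, n = 3) and each wild type array (squares, right, n = 2), with a line at the group mean. Sytl3 and Srgn are higher in all transgenic arrays and Prf1 and Gzmk lower, while the groups of the other 5 genes overlap or touch.

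Of the effectors, Prf1 differed most. It had 94.0, 89.9 and 97.1 in transgenic arrays, against 163.8 and 221.6 in wild type arrays. The transgenic arrays were close together and all below both wild type arrays, which differed from each other by more. The log2 change was -1.02 ± 0.15 (SE). In bulk RNA, fewer cells that carry Prf1 and less Prf1 RNA per cell cannot be told apart.

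The granzyme genes gave low signals. Gzmk, which encodes a granzyme with trypsin-like activity, had 41.5, 42.0 and 43.8 in transgenic arrays, against 49.4 and 61.2 in wild type arrays. The groups did not overlap, and the log2 change was -0.37 ± 0.11 (SE). Gzma, its neighbour on chromosome 13, encodes another trypsin-like granzyme and had 78.8, 78.8 and 100.2 in transgenic arrays, against 78.8 and 78.8 in wild type arrays. All arrays but transgenic replicate 3 thus carried 1 and the same value, and without that array the log2 change of 0.11 became 0.00. Gzmb, whose product cleaves after aspartate and sets off apoptosis, had 35.3, 43.6 and 38.6 in transgenic arrays, against 33.0 and 38.6 in wild type arrays, which overlapped. Its log2 change was 0.12 ± 0.13 (SE). The mean log2 levels of Gzmb and Gzmk were under 5.63, the 25th percentile over all genes tested. Array background weighs more at such levels, so a small difference in these granzymes would be hard to detect.

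Across the whole table, 581 of 12267 genes passed an adjusted p of 0.05 (limma, Benjamini-Hochberg), 211 higher and 370 lower in transgenic cells, which is 4.74% of genes. Higher genes made up 1.72% and lower genes 3.02% of the table. Among the 9 granule genes, Sytl3 and Srgn were the 2 that passed, both higher, and none passed as lower. At an unadjusted p under 0.05 there were 2 higher and 2 lower, against 867 higher and 1195 lower of all 12267 genes. Since the genes were picked with this comparison in view, nothing is read from that share or from which of them passed, here or in the fits below. The groups did not overlap for 4 of the 9, 2 higher and 2 lower, against 27.7% of all genes, 12.6% higher and 15.1% lower. Without any 1 of the 3 transgenic arrays neither Sytl3 nor Srgn passed, and without wild type replicate 2 Srgn passed and Sytl3 did not. Without wild type replicate 1 Prf1 and Gzmk came under the threshold as lower, and without wild type replicate 2 Prf1 did, which is given as a description only. The counts over the whole table ran from 2 to 1319 higher and from 2 to 1571 lower with an array left out, the low ends without transgenic replicate 1 and the high ends without wild type replicate 1. The sizes moved less, since the log2 change of Sytl3, with each array left out once, ran from 1.60 to 1.78, that of Srgn from 0.66 to 0.70, that of Prf1 from -1.23 to -0.80 and that of Gzmk from -0.52 to -0.22.

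**Figure D2:**
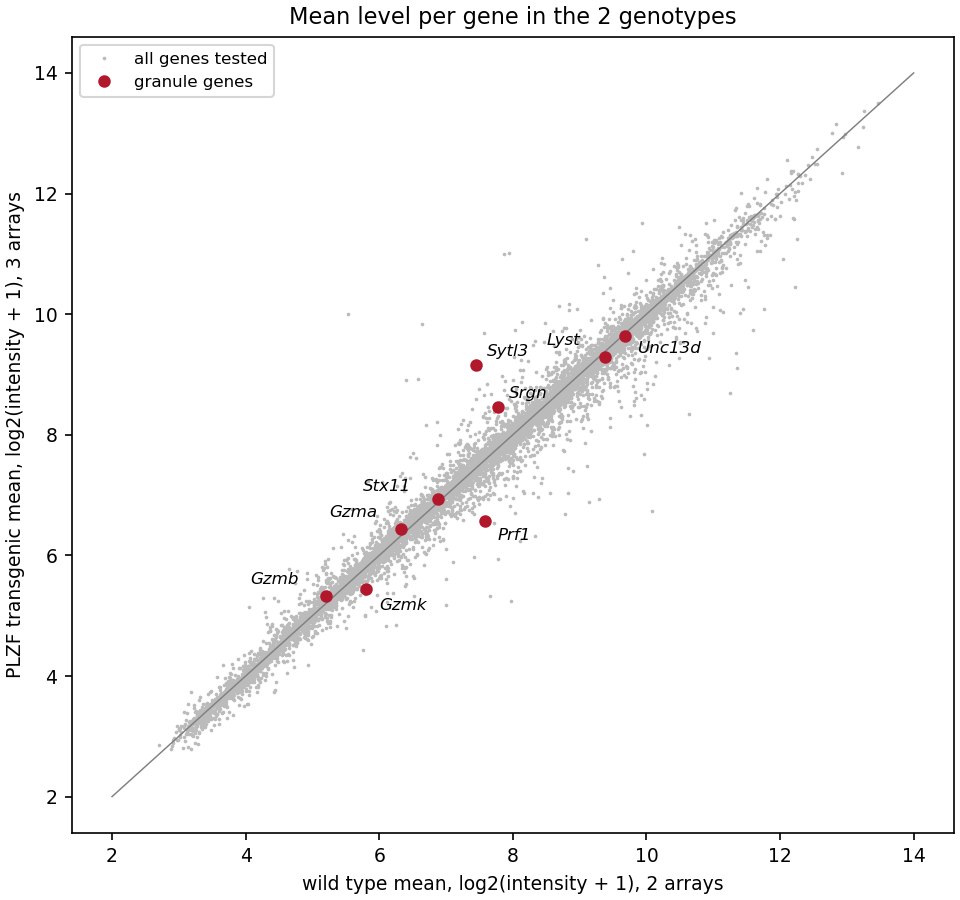
Mean log2(intensity + 1) per gene over 3 PLZF transgenic arrays (y axis) against 2 wild type arrays (x axis), with all 12267 genes tested in grey, the 9 granule genes in red and the line of equal levels. Sytl3 and Srgn lie above the line, Prf1 and Gzmk below it, and the other 5 close to it.

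Other genes of granule biology, in lists that hold none of the 10, were read from the same fit. They were drawn up with earlier results of these data known. Of 159 listed, 91 were measured, and 7 passed the adjusted threshold as higher and 4 as lower in the transgenic arrays, or 12.1%, against 4.74% of all genes. Of those, 2 of the higher and all 4 of the lower came from a list of transcription factors and Notch receptors tied to cytotoxic cells, which includes genes already known to differ here. The median log2 change of the 91 was 0.00 when rounded, as for all genes tested. Without transgenic replicate 1 there were 1 higher, Stxbp4, and 0 lower, without replicate 2 there were 0 higher and 1 lower, Bach2, and without replicate 3 there were 0 and 0. At an unadjusted p under 0.05 these 3 fits gave 9, 10 and 11 higher and 10, 11 and 11 lower. Over all genes they gave 664, 694 and 653 higher and 920, 918 and 950 lower. Without wild type replicate 1 there were 9 higher and 19 lower at the adjusted threshold, and without wild type replicate 2 there were 21 and 10.

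Among other granule effectors and their inhibitors, 3 of 7 measured passed the adjusted threshold as higher and none as lower. Of all genes, 1.72% passed as higher and 3.02% as lower. At an unadjusted p under 0.05 there was 1 lower gene, against 1195 lower of all 12267 genes. Fasl, the death receptor ligand that cytotoxic cells also keep in granules, had 243.8, 296.9 and 322.4 in transgenic arrays, against 99.6 and 107.0 in wild type arrays. It rose by 1.46 ± 0.15 on the log2 scale (SE, limma adjusted p = 0.0347). The call rested on all 5 arrays, since Fasl missed the threshold with any 1 of them left out, at limma adjusted p values from 0.0603 to 0.162 and log2 changes from 1.37 to 1.57. Both granzyme inhibitors that rose are serpins. Serpinb9, which inhibits granzyme B, had 495.8, 490.1 and 437.6 in transgenic arrays, against 223.4 and 248.0 in wild type arrays. Serpinb6b, which inhibits granzyme A in the mouse, had 865.0, 870.1 and 790.7 in transgenic arrays, against 370.1 and 407.5 in wild type arrays. The serpins were thus 2.01-fold and 2.16-fold higher, with limma adjusted p values of 0.0262 and 0.0179, and the groups were apart in each. Without any 1 of the 3 transgenic arrays neither serpin passed (limma adjusted p from 0.0852 to 0.131). The serpin and granzyme clusters hold similar gene copies, and cross-hybridisation between copies was not tested. Ctsw, the gene of a cysteine protease of cytotoxic cells, named after its values were seen, had 953.2, 1031 and 931.1 in transgenic arrays, against 1378 and 1673 in wild type arrays. Its log2 change of -0.64 ± 0.11 (SE) did not pass (limma adjusted p = 0.0855), though the groups did not overlap. The remaining members Gzmd, Gzmn and Serpinb6a had changes between -0.16 and 0.03 and did not pass.

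Most genes of priming and fusion had small changes, with a median absolute log2 change of 0.02. Of 24 Munc13, Munc18, synaptotagmin and SNARE genes measured, 2 passed the adjusted threshold as higher and none as lower. Of all genes, 1.72% passed as higher and 3.02% as lower. The groups did not overlap for 2 higher and 3 lower genes of the list, against 12.6% and 15.1% of all genes. Of the 24, 19 had the same value in at least 2 arrays. At an unadjusted p under 0.05 the fit gave 4, against 2062 of all 12267 genes. Stxbp4, which encodes a syntaxin-binding protein, had 285.0, 299.5 and 299.2 in transgenic arrays, against 163.6 and 162.6 in wild type arrays. Its log2 change was 0.85 ± 0.03 (SE, limma adjusted p = 0.00867), but a second row of the gene changed by 0.08, and the mean of both rows by 0.46. Baiap3, a relative of Unc13d in the Munc13 family, had 211.7, 221.7 and 206.2 in transgenic arrays, against 163.3 and 157.3 in wild type arrays. Its log2 change was 0.41 ± 0.04 (SE, limma adjusted p = 0.0346). Without any 1 of the transgenic arrays Baiap3 did not pass (limma adjusted p from 0.103 to 0.169). With each array left out once, its log2 change ran from 0.38 to 0.44. Stx7, a syntaxin of late endosomes, and Syt11, named after their values were seen, had log2 changes of -0.55 ± 0.13 and -0.57 ± 0.12 (SE) and did not pass (limma adjusted p = 0.163 and 0.136). The median change of the 24 was -0.0027.

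No gene passed among 8 measured Rab27 effectors and granule Rab GTPases, 26 genes of lysosome-related organelle biogenesis and BEACH proteins, the family of Lyst, or 11 genes that build glycosaminoglycans of the kind serglycin carries. At an unadjusted p under 0.05 limma gave 2, 1 and 3, against 2062 of all 12267 genes. The members with the largest changes were Chml, a Rab escort protein, at -0.32 ± 0.08, Ap3s1, a subunit of the AP-3 adaptor, at 0.55 ± 0.21, and B4galt7, which adds the first galactose of the glycosaminoglycan linker, at -0.48 ± 0.11 on the log2 scale (SE, limma adjusted p = 0.164, 0.361 and 0.138). The median changes of the 3 lists were 0.03, 0.05 and 0.0078. Rab27a, Sytl1, Sytl2, Stxbp2, Vamp8 and Lamp1 were not analysed here, so these lists cover the partners of Sytl3, Unc13d and Stx11 only in part. Rab27b was measured and had the same low log2 level, 4.78, on all 5 arrays.

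**Figure D3:**
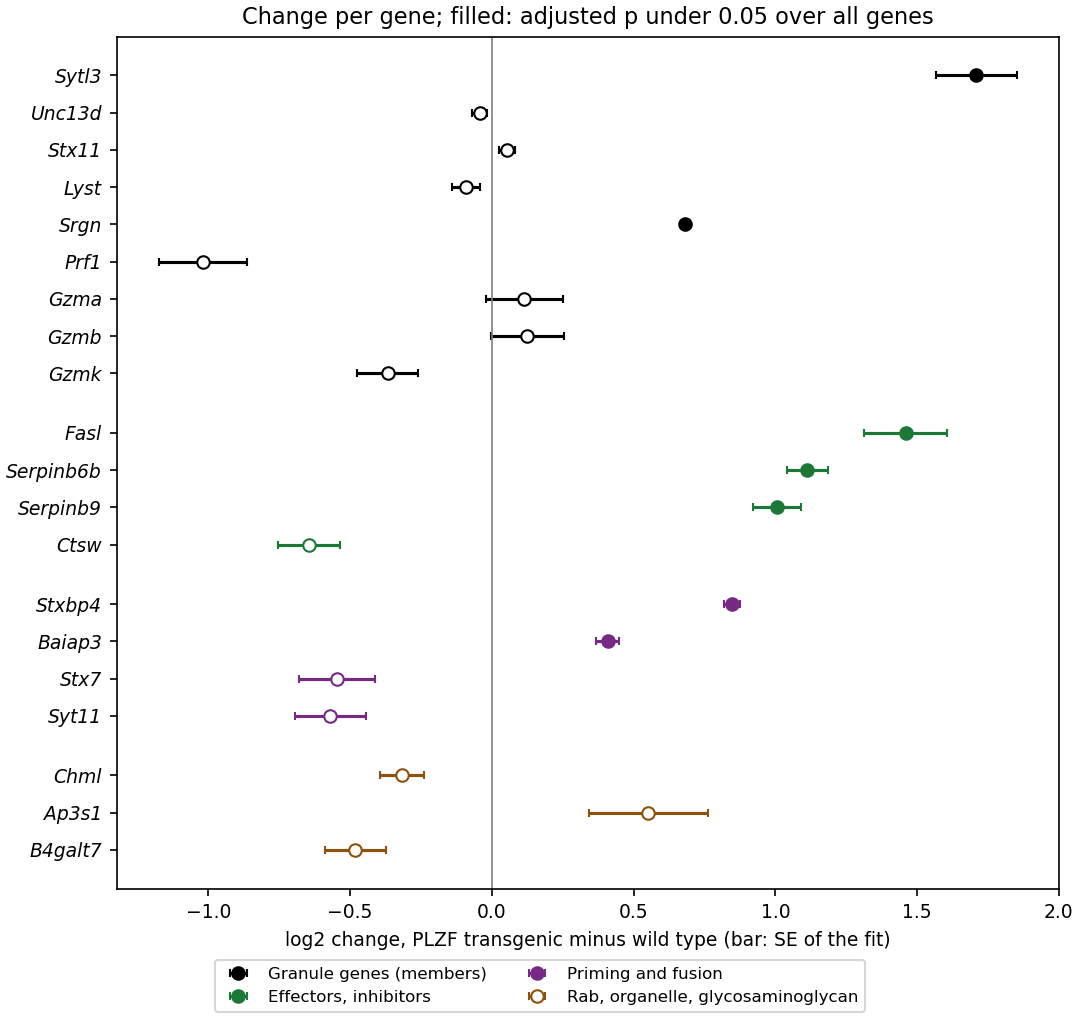
Log2 change, PLZF transgenic minus wild type (x axis), with the SE of the fit as bars, for the 9 granule genes and for the named genes of the other granule lists. Filled points had an adjusted p under 0.05 over all genes, which held for Sytl3, Srgn, Fasl, Serpinb6b, Serpinb9, Stxbp4 and Baiap3. The 9 granule genes were chosen with this comparison in view, so nothing is read from the filling of Sytl3 and Srgn.

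Transcription factors and Notch receptors tied to the cytotoxic programme moved in both directions. Of 15 measured, 2 rose and 4 fell, against 1.72% of all genes higher and 3.02% lower. The list was drawn up with genes known to differ here, so nothing is read from that share. Id2, which restrains E proteins, and Notch2, a receptor that drives effector differentiation, rose by 0.99 ± 0.04 and 0.54 ± 0.06 on the log2 scale (SE, limma adjusted p = 0.00867 and 0.0423). Notch2 missed the threshold with any 1 of the 5 arrays left out (limma adjusted p from 0.0697 to 0.195). Bach2 and Bcl6, repressors of effector differentiation, changed by -2.24 ± 0.05 and -0.78 ± 0.04 (SE, limma adjusted p = 0.00699 and 0.0149). Id2 and Bcl6 missed the threshold with any 1 of the transgenic arrays left out (limma adjusted p from 0.0524 to 0.0630 and from 0.0887 to 0.110). Bach2 passed without transgenic replicate 2 (limma adjusted p = 0.0460) but not without replicate 1 or 3 (0.0533 and 0.0567). Notch1, the other Notch receptor on the list, named after its values were seen, changed by -0.35 ± 0.02 (SE, limma adjusted p = 0.0194). Notch1 and Notch2 thus moved in opposite directions. Without any 1 of the transgenic arrays Notch1 did not pass. Tbx21 and Runx3, whose products bind T-box and RUNX sites and which are named after their values were seen, had changes of 0.21 ± 0.06 and -0.21 ± 0.06 (SE) and did not pass (limma adjusted p = 0.233 and 0.219).

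The 3 genes whose log2 values over the 5 arrays ran nearest to those of Sytl3, once each gene was centred on its own mean, were Sh3bp5, Fasl and Ly96. Their Euclidean distances from Sytl3 were 0.300, 0.374 and 0.380 on the log2 scale, and their log2 changes were 1.54, 1.46 and 1.70. Such a distance depends largely on the size of the difference between genotypes, so genes with a similar change lie near. Shared regulation was not tested.

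Marker genes of cells that the sort should exclude were read beside these values. Of 12 natural killer and innate lymphoid markers 4 were measured, all below the median of gene means. Their mean log2 level was 6.33 to 6.42 in transgenic arrays and 6.33 to 6.42 in wild type arrays. The single genes moved in both directions, by 0.27 for Cd160, -0.22 for Fcer1g, -0.04 for Itga2 and 0.004 for Cd244a on the log2 scale. The groups were apart for Cd160 and Itga2, and none of the 4 passed the test. The CD8 markers Cd8a, Cd8b1, Eomes and Nkg7 were not analysed here. The 1 CD8 marker that was measured, Ccl5, had a log2 change of 0.05 ± 0.17 (SE). Of 12 macrophage and dendritic cell markers 4 were measured, none passed the test, and their mean log2 level was 6.48 to 6.59 in transgenic arrays, below the 6.70 to 6.91 in wild type arrays. The log2 changes were -0.67 for Mpeg1, -0.39 for Cd68 and 0.04 for Csf1r, and Adgre1 had the same value on all 5 arrays. Mpeg1, the macrophage gene related to perforin, had 95.1, 109.0 and 109.0 in transgenic arrays, against 124.2 and 223.6 in wild type arrays, so wild type replicate 2 was the highest array for it and for Prf1. The part of such cells in the difference of Prf1 was not tested. The 8 neutrophil and mast cell markers measured, of 13 listed, averaged 5.39 to 5.66 in transgenic arrays and 5.35 to 5.46 in wild type arrays, all 8 below the median of gene means. None of the 4 measured B cell, 3 double-positive thymocyte, 2 gamma delta T cell, 6 thymic epithelium and stroma or 1 red blood cell markers passed the test. Among them the groups were apart for the B cell marker Cd79b (log2 change 0.18) and the gamma delta marker Blk (0.03). They were also apart for the double-positive markers Rag2 (0.12) and Dntt (-0.54). Of the CD4SP markers Cd5, Cd28, Cd6 and Zbtb7b were measured, at mean log2 levels of 10.66 to 10.69 in transgenic arrays and 10.85 to 10.87 in wild type arrays. Cd5, Cd28 and Zbtb7b fell by 0.36, 0.21 and 0.13 (limma adjusted p = 0.0437, 0.0144 and 0.0269), and Cd4 was not analysed here.

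Array medians lay between 59.0 and 60.3 and array maxima between 13300 and 14527 intensity units. Across genes, which are not independent replicates, the log2 values of transgenic arrays correlated at r = 0.998, those of the wild type pair at 0.996 and those between genotypes at 0.990 to 0.991. With so few arrays, every value here is of limited precision.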

How the data were processed

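Per the labels' protocols, total RNA from the sorted cells went through TRIzol and a column, was turned into sense-strand cDNA with an Ambion kit, labelled with biotin and hybridised to mouse exon arrays. Per the submitters' processing notes, the tools were Affymetrix Expression Console and RMA and the build was mm9; no source used here gives their versions or settings. The deposited intensity values are linear, and 100.0% of them, once in log2, sat on steps of the 5th decimal (tolerance 0.05 of a step). RMA usually includes quantile normalization, after which a change common to most genes may no longer show. In 67.2% of genes at least 2 arrays had identical values (within 5e-06 on the log2 scale).

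Of 65529 rows, 14011 carried 1 symbol, 864 several and 50654 none. The row with the highest mean was kept per gene, and log2(intensity + 1) entered a linear model with genotype as the only term in limma 3.58.1 (R 4.3.3; 3 residual and 0.5 prior degrees of freedom), with Benjamini-Hochberg adjustment across the 12267 genes. The design had foreseen log2 values or this transform. With 3 against 2 arrays the smallest exact permutation p is 0.1, so that test was left out. The genes described and the gene lists were chosen with earlier results of these data known. From each list up to 4 genes past the threshold with the largest changes were named, or else the gene with the largest change, and exceptions are stated. Alternatives were other scalings, pseudocount, row choice, filter, variance model, weights, block, threshold and each array left out. In data simulated from the means and SDs of the 12267 genes, the fit found 87 of 100 genes given a log2 change of 1 and 95 of 100 given a change of 2, with 12 calls among 12067 unchanged genes. Genes with an SD of 0 were simulated without spread, so a change given to them was easy to find, which can raise these counts. In the other genes the simulation did not keep identical values. Gene names came from the platform annotation, and promoters from RefSeq (GRCm38.p6), a build that differs from mm9. Motifs were searched on both strands.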

Additional observations from a re-analysis of the deposited data

How the results depend on the processing

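Over 17 alternatives, a threshold of 0.1 among them, Sytl3, Srgn, Prf1 and Gzmk kept their direction in every one that gave them a value. Sytl3 missed the adjusted threshold with all rows of the table, and both Sytl3 and Srgn missed it with array weights and with the replicate block. The filter on dim genes removed Gzmb and Gzmk, and the set of genes with 5 different values removed Unc13d, Stx11, Lyst, Gzma and Gzmb.

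The counts of calls moved more than the sizes. Genes higher over the whole table, 211 as fitted, numbered 395 after cyclic loess, 525 after quantile normalization, 418 among genes with 5 different values, 403 at an adjusted p of 0.1, 58 with all rows, 1 with array weights and 0 with the replicate block. Genes lower, 370 as fitted, numbered 569, 607, 625, 628, 144, 0 and 0 in the same fits. Higher genes were 36.3% of the called ones as fitted, 46.4% after quantile normalization and 57.6% without wild type replicate 2 (1066 higher and 786 lower). Granule genes called higher, 2 as fitted, were 1 with all rows and 0 with array weights or the replicate block. The 0 called lower became 1, Prf1, with median centring, cyclic loess, quantile normalization, the dim filter, 5 different values or an adjusted p of 0.1. These counts describe genes chosen on this comparison, and nothing is read from them. Other granule pathway genes called, 7 higher and 4 lower as fitted, were 3 and 2 with all rows and 0 and 0 with array weights or the replicate block. The lower ones were 7 after quantile normalization, 10 among genes with 5 different values and 7 at an adjusted p of 0.1. With array weights, limma at an unadjusted p under 0.05 gave 418 higher and 592 lower genes.

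With 1 array left out in turn, the counts ran from 2 to 1319 higher and 2 to 1571 lower over the table, 0 to 2 and 0 to 2 among the granule genes, and 0 to 21 and 0 to 19 among the other granule pathway genes. The highest counts came without a wild type array, where the remaining wild type array takes its spread from the transgenic arrays, and the lowest without a transgenic array. The cause was not tested.

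Replicate numbers 1 and 2 occur in both genotypes, but the labels do not say that they pair the samples. Deviations of same-numbered arrays from their group means correlated at 0.14 and 0.05 across genes, and whether a number marks a shared day or litter was not tested. Transgenic replicate 3 has no partner, so the block fit takes its log2 changes from the other 4 arrays (1.60 for Sytl3 and 0.68 for Srgn, as without that array). The fit with the replicate number as a block has 1 residual degree of freedom and called 0 genes, against 852 higher and 1065 lower at an unadjusted p under 0.05.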
